A study of Mus musculus with 6 samples.

Results

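The genes described here carry vitamin A (retinol) and its active product, retinoic acid, through their synthesis, binding and response. They are Rbp4, Stra6, Aldh1a1, Aldh1a2, Crabp1, Crabp2, Rarb, Rarres1 and Rarres2, 9 genes of the 25755 in the deposited table, picked by symbol. They had been picked with the sham and ON-CR values of these same libraries known, so every difference between the groups in these 9 genes is given as a description and carries no test of its own. RNA of whole optic nerves of the genotype Nf1flox/flox; hGFAP-Cre was sequenced in bulk in 6 libraries, each labelled with its own mouse. Of these, 3 were made after sham surgery (mice 1, 2 and 3) and 3 after optic nerve crush, ON-CR (mice 4, 5 and 6). Surgery was at 6 weeks of age and the nerves were analysed at 12 weeks by the study's methods, or at 3 months by the labels. In both groups, Cre under the human GFAP promoter removes Nf1 from neuroglial progenitors and the cells they give rise to, so no library had intact Nf1 in these cells.

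Retinol travels in blood bound to RBP4, enters cells through receptors such as STRA6, and is oxidized first to retinal and then, by aldehyde dehydrogenases of the ALDH1A family, to retinoic acid. Retinoic acid is handed on by the CRABP proteins, binds nuclear RAR receptors that pair with RXR receptors on DNA, and is broken down by CYP26 enzymes. In the brain, the meninges, the fibroblast layers that also wrap the optic nerve, are a known site of retinoic acid synthesis through ALDH1A2.

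Rarb, the gene of retinoic acid receptor beta, is the textbook example of a gene switched on by the ligand of its own product. The element that does this, a direct repeat of the receptor's core hexamer with a spacer of 5 bases (DR5), is shown because it was the single such repeat in the promoters found for these genes. It lies at chr14:16575507-16575535 of GRCm38.p6, on the minus strand, and the RefSeq start of the transcript is just downstream of it. The capitals mark the 17 bases of the repeat and its spacer.
Rarb: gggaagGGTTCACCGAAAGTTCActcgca
The repeat spans bases -53 to -37, counted upstream from the first base of the RefSeq transcript. It lies inside the GENCODE span of Rarb, chr14:16430839-16819156, which extends further upstream than that start. The hexamer was sought in one strict form only: A or G, then G, then G or T, then TCA. Looser forms and other spacers were not sought, so a promoter without a match may still hold a response element. Of 32851 RefSeq promoters of 300 bases, 0.0974% held a DR5 on either strand, from 31 genes. Repeats with a spacer of 1 base (DR1) or 2 bases (DR2) were in 0.222% and 0.268% of promoters, and in none of the 12 promoters found for 7 of the 9 genes. No promoter was found for Rarres2 or Crabp2. For comparison, the 250 bases before the start of Rarres1, the gene of the 9 with the largest log2 fold change, at chr3:67515524-67515773 on the minus strand, hold none of the DR1, DR2 or DR5 repeats.
Rarres1: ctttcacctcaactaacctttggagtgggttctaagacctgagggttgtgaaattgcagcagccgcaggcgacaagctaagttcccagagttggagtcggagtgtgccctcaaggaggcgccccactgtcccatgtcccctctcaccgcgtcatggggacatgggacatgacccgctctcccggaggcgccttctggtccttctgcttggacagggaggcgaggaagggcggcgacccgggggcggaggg

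The libraries held 17413963 to 23620720 estimated reads, and each ON-CR library was shallower than each sham library. The values are normalized counts, in which 1 read was worth 0.885 to 1.06. Of 13 mature oligodendrocyte genes on a list, 13 were detected. Their summed level was 1451230 to 2027170 in sham mice and 739260 to 917237 after ON-CR, with Mbp the most abundant. These genes do not show that a library held optic nerve alone. Markers of respiratory epithelium and nasal glands, mostly Bpifa1 where high, summed to 1257, 927 and 10086 in sham mice and to 450, 7560 and 7162 after ON-CR. Whether RNA of other tissue entered these libraries was not tested. The groups also differed in sex-linked RNA. Xist was at 16.7, 2.14 and 30.9 in sham mice and at 2708, 6357 and 6131 after ON-CR 4, 5 and 6, while Ddx3y was at 1645, 1291 and 1544 in sham mice and at 976, 4.19 and 0 after ON-CR. Sex and surgery therefore cannot be told apart in any difference below. Mouse 4 held Xist together with Ddx3y, Uty (298) and Kdm5d (147), so this library, labelled as 1 mouse, may hold RNA of more than 1 animal, which was not tested. The paper's methods for RNA extraction and qPCR describe more than 1 mouse per sample. They do not say whether this covers the sequenced libraries, so it may apply to any of them. Its part in the count of 3 ON-CR mice is therefore uncertain, and mouse 6 stood apart by plasma cell RNA, with Igkc at 83710 against 48.2 to 1602 in the other libraries.

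Aldh1a1, Aldh1a2, Crabp2 and Rbp4 were among the abundant RNAs of the optic nerve, while Crabp1 and Rarb were not. Levels of different genes are compared here per kilobase of annotated exon. In sham mice, Aldh1a1 was the highest at 1853 ± 327 normalized counts per kilobase (SD, n = 3), followed by Aldh1a2 at 1405 ± 68.8, Crabp2 at 1159 ± 78.7 and Rbp4 at 868 ± 98.0. These 4 genes lay between the 95.8 and 98.1 percentiles of all genes with a known length. Rarres2 was at 364 ± 21.4 per kilobase, Rarres1 at 169 ± 17.9 and Stra6 at 153 ± 29.3. The receptor Rarb, at 22.8 ± 4.83 per kilobase, and Crabp1, at 7.33 ± 7.05, were the lowest. Each gene's sham libraries lay apart from those of the next gene in this order, except for Rarres1 and Stra6, which overlapped.

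**Figure D1:**
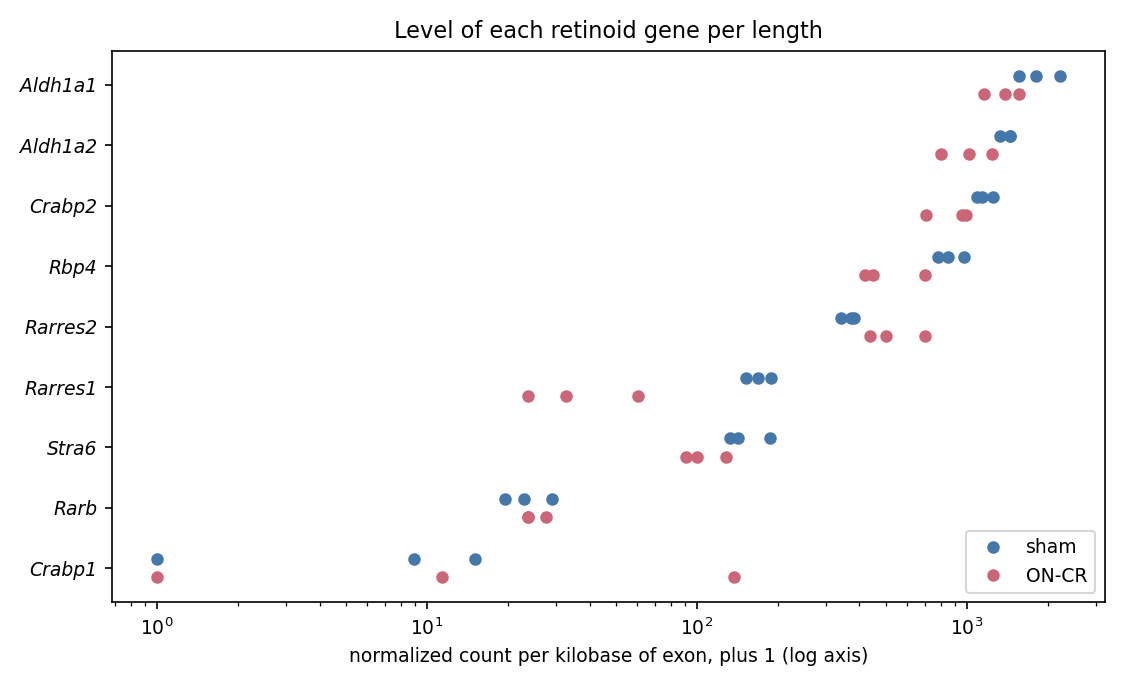
Normalized count per kilobase of exon plus 1 (log axis) for the 9 genes, with 1 point for each of 3 sham (blue) and 3 ON-CR (red) libraries. In sham mice the genes ran from Aldh1a1, at 1853 per kilobase on average, down to Crabp1, at 7.33, and after ON-CR the libraries of Rarres1 overlapped those of Rarb and Crabp1.

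In ON-CR mice, the first 3 genes kept this order, but Aldh1a1 overlapped Aldh1a2 and Aldh1a2 overlapped Crabp2. Rarres2, at 546 ± 137 per kilobase (SD, n = 3), stood above Rbp4, at 523 ± 154, and the pair overlapped. Rarres1 came down to 37.9 ± 19.2 per kilobase, where it overlapped Rarb at 23.9 ± 2.31. Crabp1 averaged 48.8 ± 75.7 because of 1 library.

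Of the 9 genes, 5 were lower in all ON-CR libraries than in all sham libraries, 1 was higher without overlap, and 3 overlapped. Over all genes, 21.6% did not overlap, 11% being lower and 10.5% higher. In the limma fit across all 25755 genes, 1 of the 9 genes, Rarres1, had an adjusted p at or under 0.05 and was lower, where 1.13% of all genes were called lower and 0.971% higher. Without sham mouse 2 or ON-CR mouse 6 none of the 9 was called (0 genes by limma), and without ON-CR mouse 4 the calls were 2, Rarres1 and Rbp4. Since the genes were picked from this contrast, nothing is read from these counts. Fold changes below are ON-CR minus sham on the log2(value + 1) scale, and other values are normalized counts of mice 1, 2 and 3 (sham) or 4, 5 and 6 (ON-CR). The median log2 fold change was -0.44 over the 9 genes and 0.03 over all genes.

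**Figure D2:**
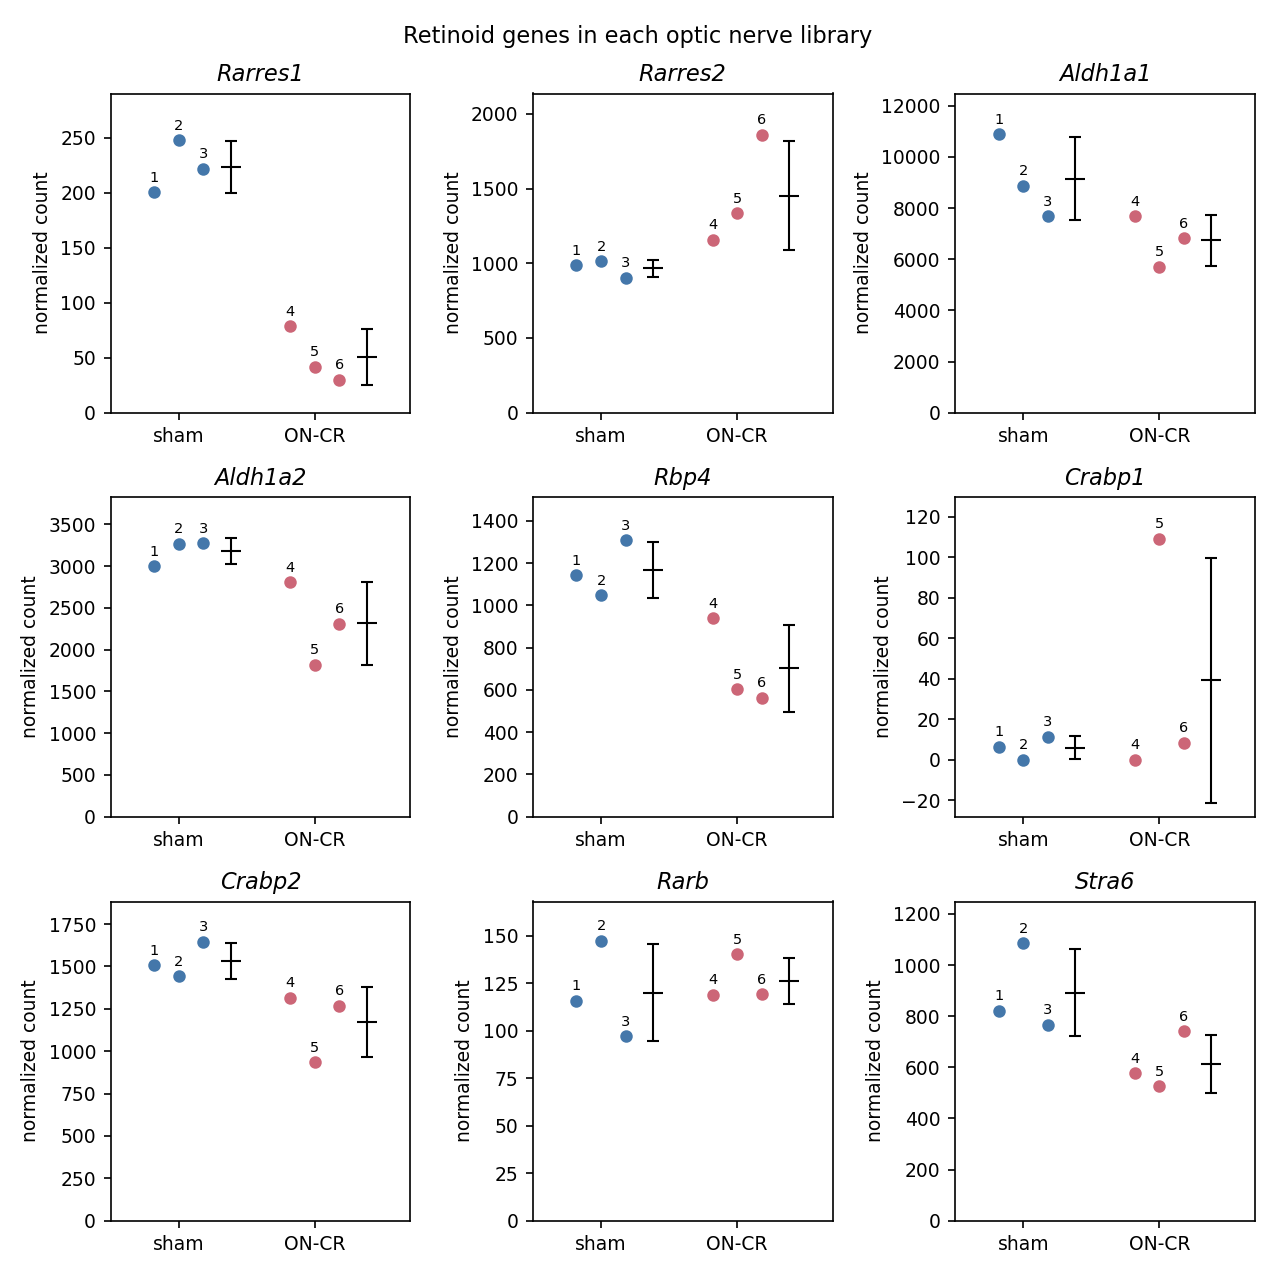
Normalized counts of the 9 genes in each library (numbered by mouse) with the mean and SD of each group (n = 3) as black bars. Rarres1 sits between 200.6 and 248 in sham mice and between 30.1 and 78.8 after ON-CR, Rarres2 is higher after ON-CR, and Crabp1 stands out in ON-CR mouse 5 alone.

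The first step of the pathway is the delivery of retinol to cells. Rbp4 (ENSMUSG00000024990.13, chr19:38116629-38125281), the blood carrier of retinol, was at 1142, 1048 and 1308 in sham mice and at 940.2, 603 and 564 after ON-CR. The groups did not overlap, with mouse 4 the closest to the sham mice. The log2 fold change was -0.76 (standard error 0.19), and the means were 1166 ± 132 and 702 ± 207 (SD, n = 3 each).
Stra6 (ENSMUSG00000032327.14, chr9:58063788-58153996), the membrane receptor for RBP4, was at 821, 1085 and 766 in sham mice and at 576, 525 and 741 after ON-CR. The highest ON-CR library, mouse 6, was just under the lowest sham library. The log2 fold change was -0.53 (standard error 0.17).

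Both aldehyde dehydrogenases were lower on average after ON-CR. Aldh1a1 (ENSMUSG00000053279.8, chr19:20492715-20643465) was at 10885, 8877 and 7686 in sham mice and at 7692, 5705 and 6829 after ON-CR. The groups met at their edges, where mouse 4 exceeded sham mouse 3 by a few counts, and the log2 fold change was -0.44 (standard error 0.15).
Aldh1a2 (ENSMUSG00000013584.5, chr9:71215789-71296243) was at 3002, 3268 and 3276 in sham mice and at 2810, 1820 and 2312 after ON-CR. Here the groups did not overlap, the sham mice were close together, and mouse 5 was the lowest. The log2 fold change was -0.48 (standard error 0.15), and the means were 3182 ± 156 and 2314 ± 495 (SD, n = 3 each).

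The 2 intracellular carriers behaved differently. Crabp2 (ENSMUSG00000004885.5, chr3:87948666-87953376), which delivers retinoic acid to its nuclear receptors, was at 1508, 1441 and 1645 in sham mice and at 1314, 933 and 1267 after ON-CR. The groups did not overlap, and the log2 fold change was -0.40 (standard error 0.15).
Crabp1 (ENSMUSG00000032291.8, chr9:54764748-54773110) was at 6.37, 0 and 11.3 in sham mice and at 0, 109 and 8.31 after ON-CR, from 0 to 12 estimated reads outside mouse 5 and 104 in mouse 5. The log2 fold change of 1.17 (standard error 1.51) was that of 1 library, and without mouse 5 it was -0.56. Mouse 5 was also the library with the most neuronal RNA. The 11 forebrain neuron markers on a list summed to 1489 to 4411 in sham mice and to 1321, 9605 and 2803 after ON-CR 4, 5 and 6, and none was at 0 in mouse 5. Their part in the Crabp1 value was not tested.

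Rarb (ENSMUSG00000017491.9, chr14:16430839-16819156) was at 116, 147 and 97.1 in sham mice and at 119, 140.1 and 119 after ON-CR. The ON-CR libraries lay inside the sham range. The log2 fold change was 0.09 (standard error 0.22), and between -0.05 and 0.24 with each mouse left out in turn, with the sign turned without sham mouse 3. Rarb shares 1793 exon bases with Top2b on the other strand, and the library kit does not mark strand, so reads that fall there may belong to either gene. Top2b was at 800.3 to 985 in all libraries, above Rarb throughout.

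Rarres1 (ENSMUSG00000049404.7, chr3:67478972-67515523), a retinoic acid-induced gene that encodes a membrane protein, had the largest log2 fold change of the 9. Its values were 201, 248 and 222 in sham mice and 78.8, 41.9 and 30.1 in ON-CR mice. Every ON-CR library was under all sham libraries, and mouse 4 was again nearest to them. The means were 223 ± 23.7 and 50.3 ± 25.4 (SD, n = 3 each), so the ON-CR mean was 0.225 of the sham mean, and the log2 fold change was -2.24 (standard error 0.32). The log2 fold change was between -2.61 and -1.93 with each mouse left out in turn.
Rarres2 (ENSMUSG00000009281.6, chr6:48569696-48572789), whose name marks it as a sister response gene but which encodes the unrelated secreted chemoattractant chemerin, was at 985, 1013 and 904 in sham mice and at 1159, 1335 and 1860 after ON-CR. It was the one gene of the 9 that was higher after ON-CR without overlap, and mouse 6 was the highest. The means were 967 ± 56.8 and 1451 ± 365 (SD, n = 3 each), and the log2 fold change was 0.56 (standard error 0.17). Without mouse 6, the library rich in plasma cell RNA, it was 0.36. Rarres2 shares 892 exon bases with Lrrc61 on the other strand, which was at 424 to 640.2 in sham mice and 448 to 530 after ON-CR.

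In bulk tissue, fewer cells of a type and less RNA per cell cannot be told apart. Several of these genes are known from meningeal fibroblasts, so 15 markers of these cells were read beside them. All 15 were found and detected, and 12 had a log2 fold change under 0, as did 12147 of all 25755 genes. The other 3 were Foxc1, Tbx18 and Zic1, with log2 fold changes of 0.09, 0.08 and 0.29. Slc47a1, an organic cation exporter, was the one called lower, where 1.13% of all genes were. Slc47a1 was at 2915, 2023 and 2778 in sham mice and at 1698, 1123 and 1285 after ON-CR. The summed level of all 15 was 410148 to 456615 in sham mice and 311699 to 414729 after ON-CR, most of it from Ptgds. Without Ptgds the sum of 14 markers was 40978, 41543 and 48268 in sham mice and 41409, 25771 and 32588 after ON-CR. It was lowest in mouse 5, as were Aldh1a1, Aldh1a2, Crabp2 and Stra6. Summed markers of mature oligodendrocytes, oligodendrocyte precursors, endothelium and Schwann cells were lowest in mouse 5 too (739260, 5837, 3563 and 6231). Those of astrocytes and of microglia and macrophages were not. A low value in mouse 5 is therefore not particular to meningeal markers.

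The 9 genes were also read relative to the sum of the 14 meningeal markers, a comparison chosen after their values were seen. Aldh1a2 was at 73.3 ± 5.40 per 1000 of the sum in sham mice and 69.8 ± 1.7 after ON-CR (SD, n = 3 each), and Crabp2 at 35.2 ± 1.42 and 35.6 ± 3.61. Stra6 was at 20.7 ± 5.16 and 19.0 ± 4.57 per 1000, and Aldh1a1 at 213 ± 53.2 and 206 ± 18.1. For these 4 genes the means differed by less than the SD of the sham mice, and the groups overlapped.
Rarres1, at 5.15 ± 0.723 per 1000 in sham mice and 1.48 ± 0.504 after ON-CR, stayed apart. Rarres2 was at 22.4 ± 3.18 and 45.6 ± 15.5 per 1000, further apart than in its normalized counts. Rbp4 was at 26.7 ± 1.35 and 21.1 ± 3.34, still without overlap. Rarb was at 2.79 ± 0.768 and 3.99 ± 1.31 per 1000 and Crabp1 at 0.13 ± 0.119 and 1.5 ± 2.37, and in both genes the groups overlapped. A ratio of this kind shows unequal change and not which of its terms changed, and the part of cell number in any of these differences was not tested.

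**Figure D3:**
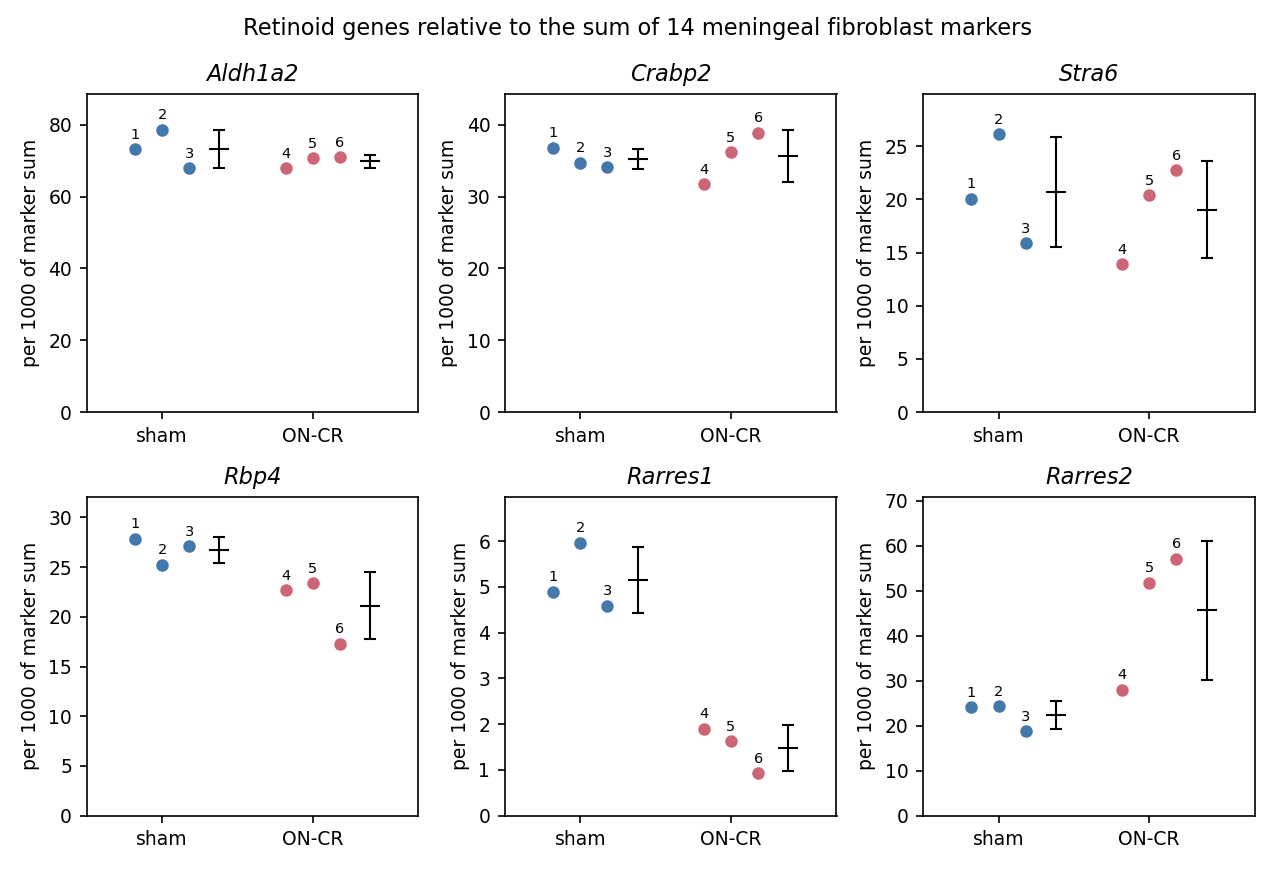
Level of 6 of the genes per 1000 of the summed normalized count of 14 meningeal fibroblast markers, by library (numbered by mouse), with the mean and SD of each group (n = 3) as black bars. Aldh1a2, Crabp2 and Stra6 overlap between sham and ON-CR mice on this scale, while Rbp4, Rarres1 and Rarres2 do not.

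Of 6 genes without overlap between the groups, mouse 4 was the ON-CR library nearest to the sham mean in 5, with Stra6 the exception. How often mouse 4 was nearest over all genes was not counted, so this is not read as a trait of these genes. Mouse 4 was also the ON-CR library with Ddx3y, and sex and surgery cannot be told apart in these differences. The summed level of mature oligodendrocyte genes was lower in all 3 ON-CR mice, as was Rarres1. Of these 13 genes, 11 did not overlap between the groups and 9 were called lower, with a median log2 fold change of -0.86 over the 13. The part of oligodendrocyte RNA in the Rarres1 difference was not tested.

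Outside these 9 genes, 70 of 91 other genes of the retinoid pathway on a list were in the table, and by limma 3 rose and 0 fell. The list was written with results of these data known, including those of Lpl and Egr1, which are among the 3. The count is therefore a description, and nothing is read from it. Over all genes, 2.1% were called in either direction, and an unadjusted p at or under 0.05 was found for 12 of the 70 genes and 4016 of all 25755. The median log2 fold change of the 70 genes was 0.04, against 0.03 over all genes.

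**Figure D4:**
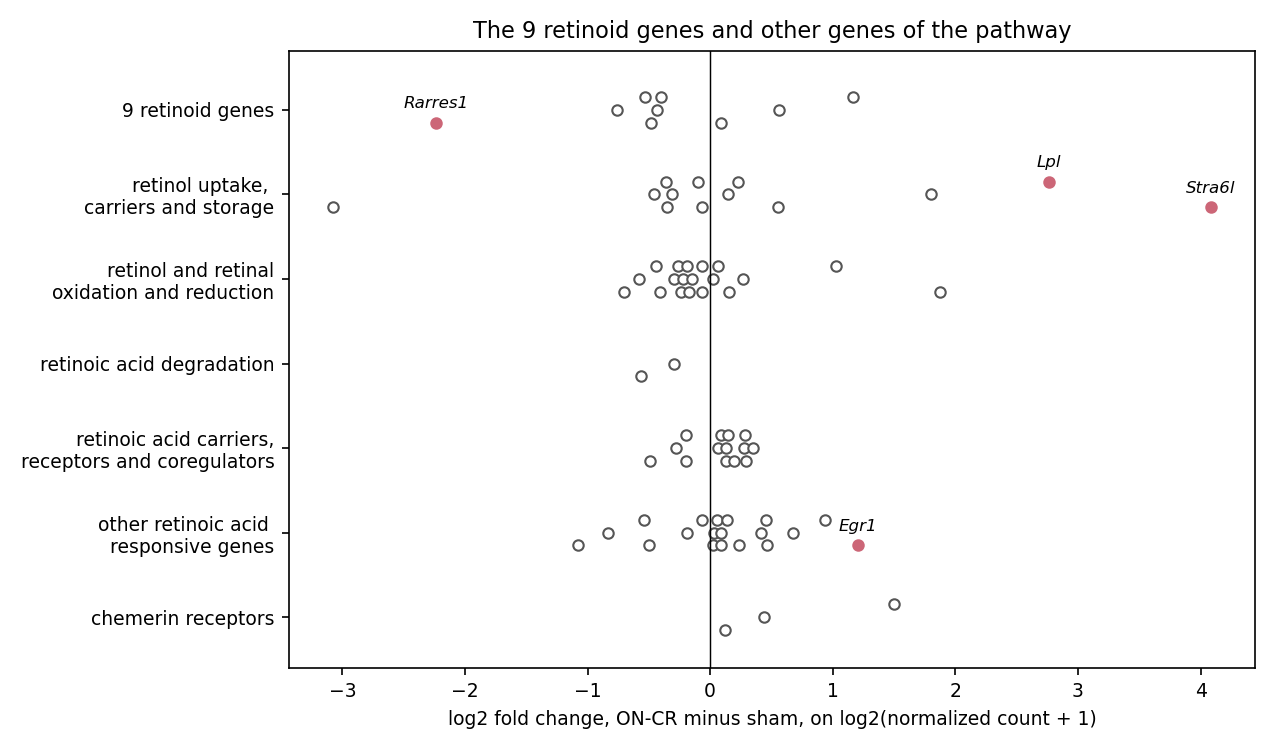
Log2 fold change (ON-CR minus sham) of the 9 genes and of 70 other retinoid pathway genes by role. Each circle is a gene, and those filled and named had an adjusted p at or under 0.05 in the limma fit across 25755 genes. Called genes of the wider pathway, Stra6l, Lpl and Egr1, lie to the right of 0, and Rarres1 lies to the left.

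Among 13 genes of retinol uptake, carriage and storage, 2 rose. Stra6l, the gene of a second RBP4 receptor related to STRA6, was at 0, 0 and 2.82 in sham mice and at 19.9, 39.8 and 20.8 after ON-CR. Sham mice held 3 estimated reads in all and ON-CR mice 78, a ratio of 27.8 with an exact 95% interval from 9.16 to 138 that covers counting error only (log2 fold change 4.08, adjusted p = 0.0173 by limma). The fold change depends on the pseudocount and was 3.36 with a pseudocount of 2 and 6.38 with 0.1, where the adjusted p by limma was 0.0552. Every gene in the table has at least about 10 estimated reads over the 6 libraries, so Stra6l is there only through its ON-CR reads, and its p and interval do not allow for that. Even after ON-CR it was scarce, and Stra6, its relative, was higher in sham mice. Without mouse 6, sham mouse 1 or sham mouse 2, the adjusted p of Stra6l by limma was 0.111, 0.0705 and 0.0888, and its values in all settings ran from 0.00794 to 0.111.
Lpl, a lipase that also frees retinyl esters from lipoproteins and is much used by lipid-laden macrophages, went from 210.3 ± 35.5 to 1506 ± 637 (SD, n = 3 each; log2 fold change 2.76, standard error 0.26, adjusted p = 0.00128 by limma). It was higher in 3 of 3 ON-CR mice and its call held in all 13 other settings. Rlbp1, a carrier of retinal known from Müller glia, was at 719, 722 and 714 in sham mice and 463, 659 and 587 after ON-CR, without overlap, but did not pass (adjusted p = 0.289 by limma).

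Lrat, the enzyme that stores retinol as an ester, varied widely within both groups. It was at 968, 69.9 and 1011 in sham mice and at 6.98, 583 and 23.9 after ON-CR. High libraries (sham mice 1 and 3, ON-CR mouse 5) and low ones (sham mouse 2, ON-CR mice 4 and 6) occurred in both groups, and the adjusted p by limma was 0.333. Without mouse 5 the adjusted p was 0.0221 and the log2 fold change -4.87. Lrat was singled out after its values were seen.

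Of 19 genes that oxidize or reduce retinol and retinal, limma called 0, and 3 had an unadjusted p at or under 0.05. Dhrs3, a retinal reductase that retinoic acid itself induces, was the highest per length, with normalized counts of 2968 ± 303 and 2852 ± 409 (adjusted p = 0.873 by limma). Rdh10, the main retinol dehydrogenase of the pathway, was at 112 ± 14.8 and 118 ± 19.6, and Aldh1a3, the third family member, was scarce at 21.2 ± 2.95 and 24.4 ± 7.39 (SD, n = 3 each).
Of 2 measured genes of retinoic acid breakdown, limma called 0, and 0 had an unadjusted p at or under 0.05. Cyp26b1, the retinoic acid hydroxylase of the brain, was at 437, 421 and 598 in sham mice and at 595, 243 and 234 after ON-CR, with mouse 4 among the sham mice. Its log2 fold change was -0.57 (adjusted p = 0.436 by limma), and -1.0 without mouse 4, with an adjusted p by limma of 0.0366. Cyp1b1, a cytochrome that also acts on retinoids and was the highest of the pair per length, was at 828, 627 and 886 in sham mice and at 674, 517 and 708 after ON-CR (adjusted p = 0.444 by limma).

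No nuclear receptor gene was called. Among 14 carriers, receptors and coregulators, limma called 0, and 2 had an unadjusted p at or under 0.05. Log2 fold changes were -0.27 for Rara, -0.20 for Rarg, 0.13 for Rxra, -0.19 for Rxrb and 0.09 for Rxrg, with standard errors of 0.32, 0.21, 0.13, 0.18 and 0.19. Fabp5, a fatty acid-binding protein that also carries retinoic acid, was at 3401 ± 359 and 4372 ± 888 (SD, n = 3 each; adjusted p = 0.332 by limma).

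Of 19 other retinoic acid-responsive genes, 1 rose. This was Egr1, an immediate early transcription factor that answers to many signals, from 160 ± 59.3 to 358 ± 60.2 (SD, n = 3 each; log2 fold change 1.21, standard error 0.26, adjusted p = 0.0426 by limma). Its adjusted p passed 0.05 when sham mouse 1, sham mouse 2, mouse 4 or mouse 6 was left out (0.149, 0.184, 0.106 and 0.231). Tgm2, a transglutaminase and a classic retinoic acid target, was at 774 ± 33.3 and 843 ± 236 (adjusted p = 0.861 by limma).
Gprc5b, an orphan receptor of a retinoic acid-induced family and the highest of this group per length, was at 1864, 3861 and 1898 in sham mice and at 1634, 1383 and 1077 after ON-CR, with sham mouse 2 far above the rest. Gprc5c, of the same family, was at 677, 693 and 830.2 in sham mice and at 648, 457 and 427 after ON-CR. Neither passed (adjusted p = 0.155 and 0.162 by limma), though in both genes each ON-CR library was under each sham library. Gprc5b shares 606 exon bases with Iqck on the other strand, and Tgm2 shares 370 with Rprd1b.

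The receptors for chemerin, the product of Rarres2, did not pass. Of 3 measured genes limma called 0, and 0 had an unadjusted p at or under 0.05. Ccrl2, which binds chemerin without signalling, was at 106, 119 and 134 in sham mice and at 221, 119.5 and 161 after ON-CR. Cmklr1, a signalling receptor, was at 57.8 ± 24.0 and 61.1 ± 15.8 (SD, n = 3 each; adjusted p = 0.909 by limma). Gpr1, the remaining gene, was scarce, at 0, 4.43 and 3.76 in sham mice and at 5.98, 12.6 and 5.19 after ON-CR. Its groups did not overlap, but it did not pass (adjusted p = 0.392 by limma).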

How the data were processed

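Optic nerve RNA in 6 libraries, each labelled as 1 mouse, was sequenced from 10 ng of total RNA each after SMARTer Ultra Low library preparation. The authors aligned and quantified reads with DRAGEN, assigned them to mm10 Ensembl genes and normalized them by median normalization in Partek Flow 10.0. The deposited values are therefore a signal per gene, counts divided by one factor per library. They were not whole reads (71.4% to 73.6% came out whole, within 0.05 reads, after division by the value of 1 read), so no count model was fitted. The test was limma (3.58.1, R 4.3.3) with its trend option, applied to log2(value + 1). P-values were adjusted over all 25755 genes by the Benjamini-Hochberg method. The step was first tested on simulated counts with the same dispersion in all genes and both groups. That simulation does not cover the wider spread of some genes after ON-CR. No gene was left out here, but the deposited table holds no gene under about 10 estimated reads over the 6 libraries.

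The 9 genes, the pathway list and the marker lists were chosen with earlier results of these data known, including those of Rarres1, Lpl and Egr1. Genes named were the 9, pathway genes called or highest per length, up to 3 more per role and the 3 genes most like each of the 9. A gene that this rule names is not reported here. Each library is labelled with its own mouse, and p-values measure the spread between these libraries; ON-CR mouse 4 held both Xist and Y-linked RNA, so whether it is 1 animal is uncertain. Positions and exon lengths (all exons of a gene merged) are from GENCODE on GRCm38, matched by symbol for 97.3% of genes, and promoter sequences are from RefSeq, GRCm38.p6. Alternatives were pseudocounts of 2 and 0.1, a minimum mean value of 10, TMM and upper-quartile scaling, a robust fit, array weights and leaving out each mouse.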

Additional observations from a re-analysis of the deposited data

How the results depend on the processing

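Over 13 other settings, all 117 recomputed fold changes of the 9 genes moved by less than 1 SD between replicates. With 3 mice per group, leaving out 1 mouse cannot move a fold change that far, and the robust fit leaves it unchanged. Nothing is therefore read from this count. The sign turned for Crabp1 without mouse 5 and for Rarb without sham mouse 3. The number of the 9 genes called was 0 without sham mouse 2 or mouse 6 and 2 without mouse 4, when Rbp4 joined Rarres1, a range of 0 to 2 with each mouse left out. The 3 calls of the wider pathway became 1 (Lpl) with a pseudocount of 0.1 and 1 to 4 with each mouse left out, with 1 without sham mouse 1, sham mouse 2 or mouse 6. Over all genes, the 540 calls became 67 to 854 with each mouse left out, lowest without mouse 6 and highest without mouse 5; without sham mouse 1, 2 or 3 they were 192, 123 and 258. The cause was not tested. With 3 mice against 3, no exact permutation p can fall below 0.1. No paired analysis was possible because the groups share no mouse number. Depth limits Crabp1 and Stra6l, with 0 to 3 reads in several libraries.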

Other observations

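For each of the 9 genes, those most like it over the 6 libraries were sought among genes with a mean value of at least 50. There were 14435 such genes to compare, or 14436 for Crabp1, whose own mean was under 50. The measure was Pearson's r on log2(value + 1), as a description without a test. With 6 libraries many genes come close, and 304 had an r above 0.95 with Rarres1. The nearest were Scara3, Gm32122 and Heatr3 for Rarres1 (each 0.995) and Tgfbr3, Fn1 and Pdzk1ip1 for Crabp2 (0.994, 0.992 and 0.992). Aldh1a2 was nearest to Tmem267, 9330117O12Rik and the gap junction gene Gjb2 (0.994, 0.992 and 0.991), and Rbp4 to Syt12, the retinoic acid-induced Gprc5c and Trp53i11 (0.995, 0.989 and 0.985). For Rarres2 they were Bnip1, Rpl27a and Uhrf1 (0.997, 0.992 and 0.991), for Aldh1a1 Gmeb2, Nap1l1 and Foxred1 (0.995, 0.992 and 0.992), for Stra6 Uchl3, Mtmr12 and Nadsyn1 (0.993, 0.992 and 0.99) and for Rarb Hectd3, A230072C01Rik and Slc13a5 (0.978, 0.973 and 0.97). Among the 9 genes themselves, the closest pair was Aldh1a2 and Crabp2, with an r of 0.95, and the most opposed was Rarres2 and Rbp4, with an r of -0.94. Gm10033, Fhad1 and Gm37180 were nearest to Crabp1 (0.988, 0.987 and 0.987), whose values rest on mouse 5. The libraries share the group difference, which enters each of these values.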
